A study of Mus musculus with 45 samples.

Results

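Expression of 9 genes of the fibroblast growth factor (Fgf) system was followed through the first 3 days of mouse embryonic stem cell (ESC) differentiation in cells with and without Smad2 and Smad3. The genes were 5 ligands (Fgf4, Fgf5, Fgf8, Fgf15 and Fgf17) and 4 receptors (Fgfr1, Fgfr2, Fgfr3 and Fgfr4). They were chosen by symbol, and every probe annotated with one of these symbols was read, 16 of 45281 probes on the Illumina MouseWG-6 v2.0 expression array. Of the 9 genes 7 were bright enough to be tested, on 10 probes, among 16896 tested probes covering 9666 genes. Fgfr3 and Fgfr4 were not detected on any of the 45 arrays.

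Fgf ligands are secreted proteins that bind receptor tyrosine kinases together with heparan sulfate chains and activate the Ras, Erk MAP kinase cascade. Fgf4 is the ligand through which ESCs stimulate their own Erk pathway and become able to leave the naive state, Fgf5 is the standard marker of the formative and primed epiblast, and Fgf8 is made in the primitive streak, where it is required for mesoderm cells to migrate away. Fgfr1 and Fgfr2 are both active in the early embryo, and Fgfr2 is strongly expressed in trophectoderm and extra-embryonic ectoderm, whose stem cells depend on Fgf4. Smad2 and Smad3 are the transcriptional effectors of Nodal, Activin and Tgf-beta receptors.

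The arrays held ESCs, embryoid bodies (EBs) at day 2 (d2) and EBs at day 3 (d3) of 4 genotypes: wild type (WT), Smad2 KO (homozygous for the tm1Rob allele), Smad3 KO (exon 1 removed with Cas9 nickase and guides on both sides of it) and Smad2/3 DKO (both lesions). There were 4 arrays in each of 9 groups and 3 arrays in each ESC knockout group. All cells were XY ESCs of strain 129/Sv//Ev, kept without feeders in serum with LIF, and EBs were grown in hanging drops of serum medium without LIF, then in suspension for the last day of d3. Each WT array was another line (CCE, CCB, CCH and CCF as replicates 1 to 4), the Smad2 KO arrays were KT11, KT12, KT15 and KT17, all Smad3 KO clones came from CCE, and all Smad2/3 DKO clones came from the Smad2 KO clone KT15. Replicates are therefore lines or clones, and for Smad3 KO and Smad2/3 DKO only clones of 1 parent. The p-values rest on the spread between arrays of a group, pooled over all groups fitted together. In knockout comparisons they thus mix the spread of lines with that of clones of 1 parent. About 1250 EBs were pooled per WT and Smad3 KO array. Smad2 KO arrays had 2500 at d2 and 5000 at d3, and Smad2/3 DKO arrays 5000 except 2500 in d2 replicate 2. The number of EBs and loss of Smad2 therefore cannot be told apart. Nor can line origin and loss of Smad2, since all cells without Smad2 were KT clones or made from KT15. All cells with Smad2 were CC lines or made from CCE.

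Arrays had a median signal of 111 to 243, with 11338 to 14256 probes detected. The Smad3 probe lay between 7.67 and 10.08 on the log2 scale where Smad3 was present and between 4.83 and 5.62 where it was deleted, apart from 3 libraries. The Smad2 probe read 8.37 to 9.75 on all arrays and so does not mark the Smad2 genotype. Judged by Smad3 (3 libraries) or by the stage that the first principal component marked (3 libraries), 4 libraries in total did not match what they were called and are termed doubted: those labelled ESC Smad3 KO replicate 4, d2 Smad2 KO replicate 4, d2 Smad2/3 DKO replicate 4 and d3 Smad2 KO replicate 4. Results are given as labelled and, where they moved, also with the doubted libraries left out. Markers of the primed epiblast were bright in WT d3 EBs (summed signal of 7 genes 21565 to 28393) and naive markers in WT ESCs (11 genes, 55776 to 63485, against 3584 to 7204 in WT d3 EBs).

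Levels are log2 of normalised signal, which cannot be compared between probes of different genes. A probe was detected on an array at a detection p-value under 0.01. Genes count as called where limma with Benjamini-Hochberg adjustment over all tested probes gave an adjusted p below 0.05, and changes are given as log2 differences ± SE. The background is the share of all tested genes called in this way. At an unadjusted p under 0.05 that share was not counted, so counts of members at that threshold stand without a background. Where a probe was not detected on any array of a group, the change is given as "at least N-fold": the mean of the bright group was set against, per array of the dim group, the higher of the lowest signal among detected probes (6.55 to 7.44 in log2 units) and the signal of the probe itself. In such bulk samples fewer cells of a type and less RNA per cell cannot be told apart.

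RefSeq promoters (assembly GRCm38.p6, 250 bases before to 50 after the transcription start) were at hand for 5 of the 9 genes, with 6 windows in all. They are shown for a ligand that was detected in all WT ESC arrays and in no WT d3 array (Fgf4), for the ligand that was lower in both genotypes without Smad2 (Fgf5) and for the receptor that was higher in Smad2/3 DKO EBs (Fgfr2), each 5′ to 3′ on the strand of the gene with CG dinucleotides in capitals. Fgf4 lies at chr7:144861136-144861435 on the plus strand, Fgf5 at chr5:98253934-98254233 on the plus strand and Fgfr2 at chr7:130266759-130267058 on the minus strand.
Fgf4: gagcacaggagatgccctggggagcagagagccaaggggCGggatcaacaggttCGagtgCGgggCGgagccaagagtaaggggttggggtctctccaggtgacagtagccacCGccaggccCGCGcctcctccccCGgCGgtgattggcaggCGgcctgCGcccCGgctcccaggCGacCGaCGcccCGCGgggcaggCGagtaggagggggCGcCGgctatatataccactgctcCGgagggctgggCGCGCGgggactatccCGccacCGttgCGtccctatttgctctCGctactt
Fgf5: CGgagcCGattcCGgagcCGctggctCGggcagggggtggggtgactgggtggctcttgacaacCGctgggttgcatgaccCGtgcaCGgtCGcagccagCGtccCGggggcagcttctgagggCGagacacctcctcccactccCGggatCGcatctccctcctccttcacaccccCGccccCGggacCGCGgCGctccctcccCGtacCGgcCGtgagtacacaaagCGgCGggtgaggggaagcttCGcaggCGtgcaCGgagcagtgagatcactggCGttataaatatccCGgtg
Fgfr2: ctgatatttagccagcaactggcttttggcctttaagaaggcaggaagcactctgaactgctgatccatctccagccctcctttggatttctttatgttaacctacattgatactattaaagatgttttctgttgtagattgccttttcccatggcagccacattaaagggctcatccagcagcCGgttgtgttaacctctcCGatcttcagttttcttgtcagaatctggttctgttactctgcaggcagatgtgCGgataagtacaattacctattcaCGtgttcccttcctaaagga
The Fgf4 window held 28 CG and the Fgf5 window 29, numbers that 14.2% and 12.9% of 32851 RefSeq promoters of this length reach, whereas the Fgfr2 window held 4, reached by 68.6% (median of all promoters 7). GC content was 69.7% in Fgf4, 68.3% in Fgf5 and 43.7% in Fgfr2. The Smad-binding letters CAGAC, searched on both strands, occurred in none of the 6 windows and in 49.6% of all promoters. The Foxh1 letters AATNCACA, counted separately and also on both strands, occurred in none of the 6 windows and in 3.6% of all promoters. Fgf8, Fgf15, Fgf17 and Fgfr1 are named only.

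In WT cells the ligands followed different courses. Between ESCs and d2 EBs 6 of the 7 tested members were called (4 higher, 2 lower), where 28.4% of all tested genes were. Between d2 and d3 EBs 3 were called (1 higher, 2 lower; 5.95% of all tested genes), and between ESCs and d3 EBs 5 (4 higher, 1 lower; 35.1% of all). The 3 calls between d2 and d3 were close to the threshold, since that of Fgf4 was lost on leaving out any of 6 of the 8 arrays (all but d2 CCH and d3 CCB), that of Fgf15 any of 6 (all but d2 CCB and d3 CCB) and that of Fgf8 any of 4 (d2 CCF and d3 CCE, CCH and CCF). Fgf5 and Fgf8 appeared between ESCs and d2, Fgf15 was highest at d2, Fgf4 was brightest in ESCs, and Fgf17 was bright in ESCs and again at d3.

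Fgf4 stood at 9.22, 8.75, 9.04 and 9.08 in WT ESCs, at 8.34, 7.19, 6.25 and 6.71 in WT d2 EBs and at 5.53, 6.07, 5.45 and 5.92 in WT d3 EBs. It was detected in all 4 ESC arrays, in the CCE and CCB lines at d2 and in no line at d3, and neither stage overlapped with ESCs. Fgf4 fell by 1.90 on the log2 scale from ESCs to d2 (SE 0.35, adjusted p = 0.00146), and at d3 was at least 5.06-fold lower than in ESCs (adjusted p = 1.54e-05) and at least 1.36-fold lower than at d2 (adjusted p = 0.0387).

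Fgf5 was not detected in WT ESCs (4.95 to 5.42) and stood at 10.73, 11.45, 11.48 and 11.34 in d2 EBs and 11.53, 11.31, 12.11 and 11.05 in d3 EBs. All 4 lines had switched the gene on by d2, at least 21.4-fold (adjusted p = 4.43e-09), and the d2 and d3 groups overlapped. The difference between d2 and d3 was 0.25 ± 0.23 (95% interval -0.26 to 0.75, adjusted p = 0.621).

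Fgf8 was not detected in WT ESCs (5.11 to 5.53) and then stood at 8.87, 11.09, 11.42 and 11.05 at d2 and 12.95, 11.60, 13.01 and 12.63 at d3. The CCE line, which lagged the other lines at d2, was among the highest at d3, and the d2 and d3 groups did not overlap. The rise was at least 13.7-fold by d2 (adjusted p = 6.24e-06) and at least 52.6-fold by d3 (adjusted p = 2.8e-07), and the step from d2 to d3 was 1.94 ± 0.47 (adjusted p = 0.0337). A second, dimmer Fgf8 probe was called higher at d3 than in ESCs (adjusted p = 0.000588) and than at d2 (adjusted p = 0.0208). It was not detected at d2 and not called between ESCs and d2 (adjusted p = 0.405), so it did not show the early rise. This second probe was detected on 6 arrays, all of WT or Smad2 KO d3 EBs. It was thus tested only through groups in which it was bright, and its calls are no independent check.

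Fgf15, the mouse counterpart of human FGF19, stood at 8.24, 8.04, 8.42 and 8.45 in WT d2 EBs and at 7.03, 7.59, 7.10 and 7.53 in WT d3 EBs, and was not detected in any ESC array. It was thus highest at d2 in every line, at least 2.74-fold above ESCs (adjusted p = 1.76e-05), and fell by 0.98 on the log2 scale from d2 to d3 (SE 0.24, adjusted p = 0.0363). At d3 it was still at least 1.39-fold above ESCs (adjusted p = 0.000714).

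Fgf17, a close relative of Fgf8, followed another course. It stood at 10.86, 11.05, 8.15 and 8.85 in WT ESCs, at 6.81, 6.92, 6.66 and 8.31 in d2 EBs and at 9.62, 8.34, 9.54 and 10.29 in d3 EBs. The CCE and CCB lines were higher than CCH and CCF in ESCs, and the CCF line was the highest at d2, so the ESC and d2 groups overlapped. Fgf17 fell by 2.56 on the log2 scale from ESCs to d2 (SE 0.63, adjusted p = 0.00967). From d2 to d3 the difference was 2.27 ± 0.63 with an adjusted p of 0.055, and the groups did not overlap. ESCs and d3 EBs differed by -0.28 ± 0.63 (95% interval -1.65 to 1.08, adjusted p = 0.762). On a second, dimmer Fgf17 probe the fall from ESCs to d2 was not called (adjusted p = 0.0578).

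Of the receptors, Fgfr1 was not detected in WT ESCs (6.21, 6.49, 5.98 and 6.57) and was detected in all WT EBs, at 7.40, 7.35, 7.12 and 6.79 at d2 and 7.36, 7.18, 7.35 and 7.25 at d3. All 8 EB arrays lay above all 4 ESC arrays. The group mean was at least 1.26-fold higher than ESCs at d2 (adjusted p = 0.00317) and at least 1.37-fold at d3 (adjusted p = 0.000931). Fgfr2 was detected on every WT array, at 9.49, 9.31, 10.27 and 9.61 in ESCs, 10.03, 8.80, 9.30 and 9.70 at d2, and 8.47, 9.63, 8.99 and 7.78 at d3. The 3 stages overlapped, and none of the changes passed the test (d3 against ESCs -0.95 ± 0.37, 95% interval -1.75 to -0.15, adjusted p = 0.0653). Fgfr3 lay between 4.90 and 6.50 and Fgfr4 between 4.88 and 5.40 over the 45 arrays, with detection on none of them, so their expression was not detectable on these arrays.

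**Figure D1:**
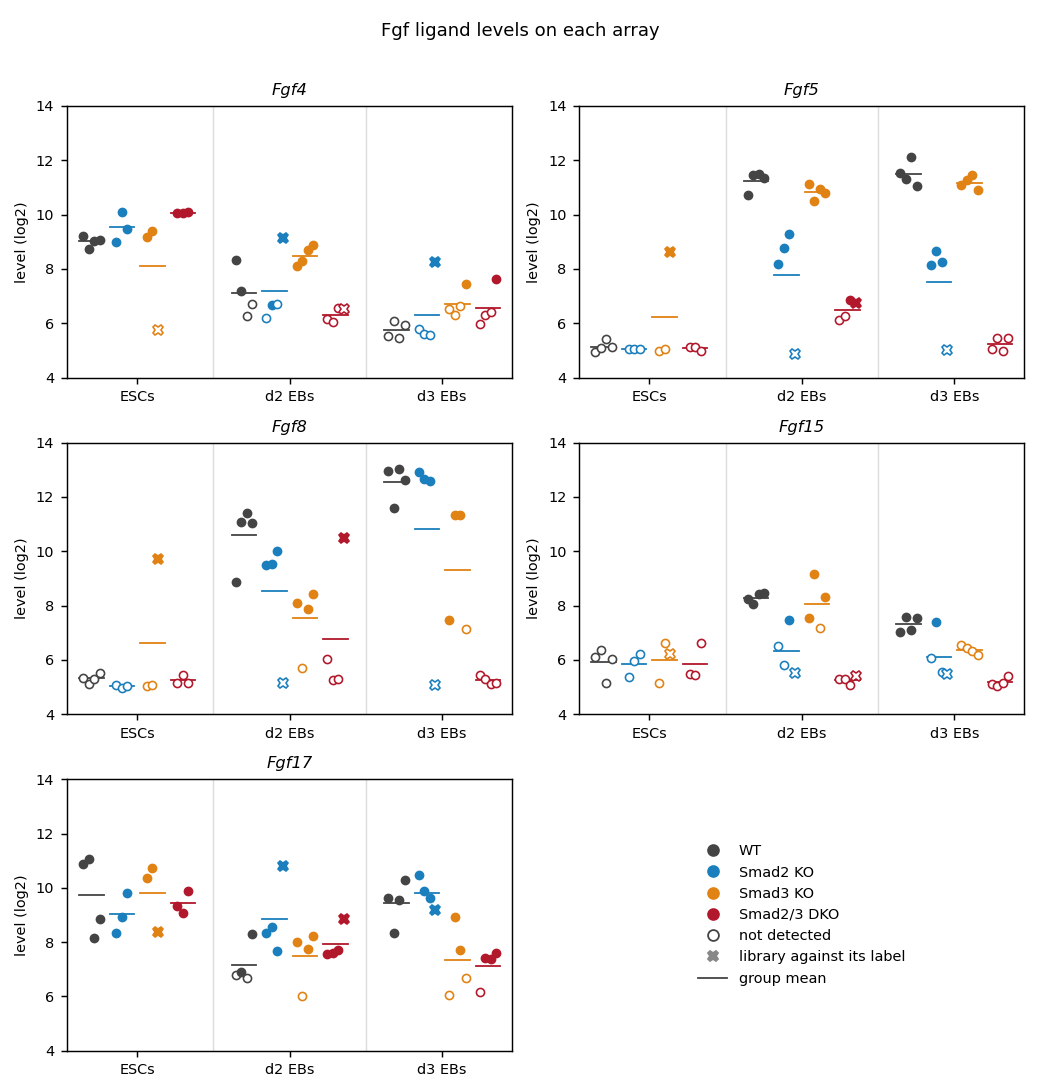
Log2 normalised signal (y axis) of Fgf4, Fgf5, Fgf8, Fgf15 and Fgf17 on each of the 45 arrays, by stage and genotype (x axis). Open points are arrays on which the probe was not detected, crosses are the 4 libraries that went against their labels, and bars are group means. Fgf5 sits between 10.73 and 12.11 in WT EBs and between 4.97 and 5.47 in Smad2/3 DKO d3 EBs.

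**Figure D2:**
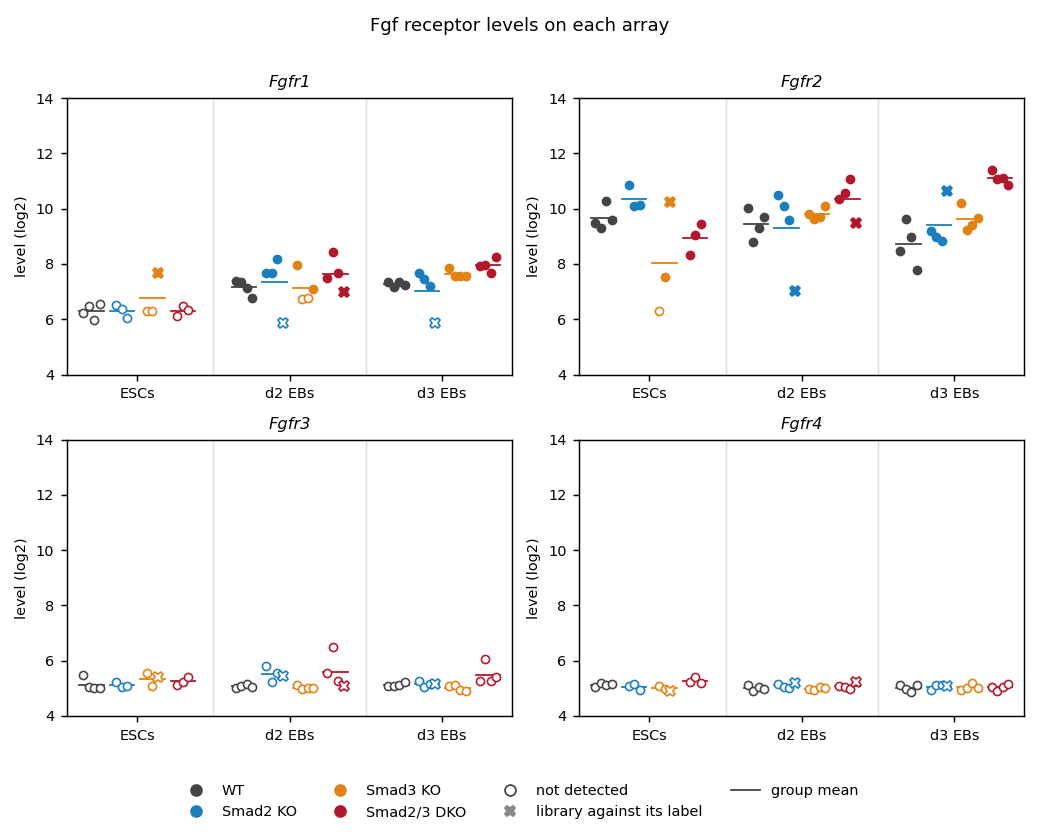
Log2 normalised signal (y axis) of Fgfr1, Fgfr2, Fgfr3 and Fgfr4 on each array, by stage and genotype (x axis), drawn as for the ligands. Fgfr2 sits between 10.87 and 11.41 in Smad2/3 DKO d3 EBs and between 7.78 and 9.63 in WT d3 EBs, and Fgfr3 and Fgfr4 are open throughout.

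In ESCs, none of the 7 tested members was called in a knockout against WT, nor was any other gene (background 0% in each of the 3 comparisons by limma, adjusted p for the members 0.783 to 1). At an unadjusted p under 0.05 only 1 member in 1 genotype passed, Fgfr2 in Smad3 KO ESCs (share of all genes not counted). Without the library labelled ESC Smad3 KO replicate 4 no member was called either, and the background was 0.031% in Smad2 KO, 0% in Smad3 KO and 0.0517% in Smad2/3 DKO.

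Fgf4 and Fgf17, the ligands that ESCs express, were detected in knockout ESCs as in WT, apart from Fgf4 in the library labelled ESC Smad3 KO replicate 4 (5.76). Fgf4 stood at 10.04, 10.05 and 10.10 in Smad2/3 DKO ESCs, above all 4 WT arrays, at 9.0, 10.11 and 9.47 in Smad2 KO, and at 9.18 and 9.40 in the first 2 Smad3 KO libraries. The difference between Smad2/3 DKO and WT was 1.04 ± 0.67 as labelled and 1.04 ± 0.23 without the doubted library (adjusted p = 0.346). Fgf17 stood at 8.34, 8.92 and 9.81 in Smad2 KO, 10.35 and 10.71 in Smad3 KO and 9.35, 9.06 and 9.90 in Smad2/3 DKO ESCs, all within the range of the WT lines.

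Fgfr2 was the member whose ESC level departed furthest in a knockout. It stood at 6.30 (not detected) and 7.55 in the Smad3 KO clones CCE.1H1 and CCE.2E7, below all other ESC arrays, against 9.49 in their parent line CCE. The library labelled ESC Smad3 KO replicate 4 read 10.23, and also had Fgf5 at 8.62 and Fgf8 at 9.72, ligands that no other ESC array detected. With that library out the difference from WT was -2.74 ± 0.41 (adjusted p = 0.0993), and with it in, -1.64 ± 0.69. Fgfr2 in Smad2 KO ESCs was 10.86, 10.10 and 10.13, and in Smad2/3 DKO ESCs 8.32, 9.07 and 9.44, both overlapping the WT range.

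At d2, 2 members were lower in Smad2 KO than in WT EBs (Fgf5 and Fgf15; background 0.559%), none was called in Smad3 KO (background 0.0207%), and 2 were lower in Smad2/3 DKO (Fgf5 and Fgf15; background 2.41%). In Smad3 KO 2 members had an unadjusted p under 0.05, Fgf4 (0.021) and Fgf8 (0.0206), where the share of all genes was not counted. Without the doubted libraries the calls were Fgf5 in Smad2 KO (background 1.57%), Fgf8 in Smad3 KO (background 0.362%) and 4 members in Smad2/3 DKO, Fgf5, Fgf8 and Fgf15 lower and Fgfr2 higher (background 4.62%).

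At d3, 1 member was lower in Smad2 KO (Fgf5, background 3.03%) and none was called in Smad3 KO (background 1.31%). In Smad2/3 DKO EBs 5 were called (background 17%), with Fgf5, Fgf8, Fgf15 and Fgf17 lower and Fgfr2 higher. Without the doubted library these counts were 1 in Smad2 KO (background 3.27%), 2 in Smad3 KO (Fgf8 and Fgf17 lower; background 6.34%) and 6 in Smad2/3 DKO, with Fgfr1 joining Fgfr2 on the higher side (background 23.2%). All 3 knockouts were set against the same WT arrays, so their changes are not independent.

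Fgf5 was graded by genotype. At d2 it stood at 10.73 to 11.48 in WT, 11.14, 10.51, 10.95 and 10.78 in Smad3 KO, 8.16, 8.76 and 9.29 in the first 3 Smad2 KO libraries, and 6.10 (not detected), 6.25 (not detected), 6.86 and 6.76 in Smad2/3 DKO. The library labelled d2 Smad2 KO replicate 4 had no detectable Fgf5 (4.88), like an ESC library. No Smad2 KO or Smad2/3 DKO array reached the WT range, and the Smad3 KO arrays overlapped it. The change in Fgf5 from WT was -3.48 ± 0.65 in Smad2 KO (adjusted p = 0.0314), or -2.52 ± 0.28 with the doubted libraries left out (adjusted p = 0.00119), and -4.76 ± 0.65 in Smad2/3 DKO (adjusted p = 0.00102). The Smad2 KO call was lost on leaving out any of the 4 WT arrays or Smad2 KO replicate 1 (KT12), with changes between -3.99 and -2.52 over the 8 arrays left out in turn.

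At d3 the gap in Fgf5 was wider. Smad3 KO EBs read 11.07, 11.26, 11.44 and 10.92, and Smad2 KO EBs 8.15, 8.66, 8.26 and, in the library labelled d3 Smad2 KO replicate 4, 5.01 (not detected). Smad2/3 DKO EBs read 5.04, 5.47, 4.97 and 5.45, not detected on any array, and within the range of WT ESCs (4.95 to 5.42) or just above it. Against WT the change was -3.98 ± 0.56 in Smad2 KO (adjusted p = 0.00168; -3.15 ± 0.23 without the doubted library), at least 27.7-fold lower in Smad2/3 DKO (adjusted p = 5.38e-06), and -0.33 ± 0.56 in Smad3 KO (95% interval -1.53 to 0.87, adjusted p = 0.788). In KT15, the Smad2 KO clone from which the Smad2/3 DKO clones were made, Fgf5 read 8.76 at d2 and 8.66 at d3, above every Smad2/3 DKO clone.

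Fgf8 split the single knockouts the other way. At d2 Smad2 KO EBs read 9.51, 9.55 and 10.01 in the first 3 libraries, Smad3 KO EBs 8.09, 5.71 (not detected), 7.88 and 8.42, and Smad2/3 DKO EBs 6.05, 5.25 and 5.29, not detected, with 10.49 in the library labelled d2 Smad2/3 DKO replicate 4. The Smad3 KO arrays all lay below the WT arrays (8.87 to 11.42), and below their parent line CCE, which at 8.87 was the lowest WT line. The Smad2 KO arrays overlapped WT.

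As labelled none of these d2 differences in Fgf8 was called, and the doubted libraries decided the calls. The difference from WT was -3.08 ± 1.19 in Smad3 KO (adjusted p = 0.506) and -3.84 ± 1.19 in Smad2/3 DKO (adjusted p = 0.125). With them left out the differences were -3.08 ± 0.59 in Smad3 KO (adjusted p = 0.0499), at least 14.4-fold lower in Smad2/3 DKO (adjusted p = 0.000452) and -0.92 ± 0.64 in Smad2 KO (adjusted p = 0.522).

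At d3 Fgf8 stood at 12.93, 12.66 and 12.59 in the first 3 Smad2 KO libraries, inside the WT range of 11.60 to 13.01, and was not detected (5.08) in the library labelled d3 Smad2 KO replicate 4. Without that library Smad2 KO and WT differed by 0.18 ± 0.84 (95% interval -1.62 to 1.98, adjusted p = 0.953). The Smad3 KO clones fell into a high and a low pair, CCE.2B7 and CCE.1H1 at 11.32 and 11.33 and CCE.2E7 and CCE.2H2 at 7.48 and 7.13 (the last not detected), all below WT and below 12.95 in CCE.

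In Smad2/3 DKO d3 EBs Fgf8 was not detected on any array (5.11 to 5.44), at least 57.2-fold below WT (adjusted p = 0.0027). In Smad3 KO it differed from WT by -3.23 ± 1.42 (adjusted p = 0.223), or -3.23 ± 0.78 without the doubted Smad2 KO library, whose spread enters the shared variance (adjusted p = 0.0304). On the second Fgf8 probe WT read 8.48, 6.06 (not detected), 8.25 and 7.77 and Smad2/3 DKO 5.04 to 5.16 (not detected), lower with an adjusted p of 0.0135. That probe was detected only on WT and Smad2 KO d3 arrays, 3 of each. It was thus tested only through groups in which it was bright, and this call is no independent check of the first probe.

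Fgf15 was called lower at d2 in both genotypes without Smad2. At d2 it was detected in 1 of 4 Smad2 KO libraries (6.50, 5.80, 7.45 and, in the doubted replicate 4, 5.52), in 3 of 4 Smad3 KO libraries (7.55, 9.17, 7.16 and 8.32, the 7.16 not detected) and in no Smad2/3 DKO library (5.29, 5.28, 5.06 and 5.41). The Smad2 KO and Smad2/3 DKO arrays all lay below the WT arrays (8.04 to 8.45), whereas Smad3 KO arrays lay on both sides of them. Fgf15 fell by 1.97 on the log2 scale in Smad2 KO (SE 0.41, adjusted p = 0.0477), a call that was lost without the doubted libraries (-1.70 ± 0.42, adjusted p = 0.0712) and on leaving out any 1 array except Smad2 KO replicate 3 (KT11), with changes of -2.35 to -1.70, and was at least 2.91-fold lower in Smad2/3 DKO (adjusted p = 0.000885).

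At d3 Fgf15 was not detected in Smad3 KO (6.56, 6.44, 6.32 and 6.16) or Smad2/3 DKO EBs (5.13, 5.02, 5.16 and 5.40), and was detected in 1 Smad2 KO library (6.07, 7.38, 5.56 and, in the doubted replicate 4, 5.47). The WT arrays (7.03 to 7.59) lay above all Smad3 KO and Smad2/3 DKO arrays. Only the Smad2/3 DKO difference was called (at least 1.51-fold lower, adjusted p = 0.000344), with adjusted p values of 0.123 in Smad3 KO (at least 1.37-fold lower) and 0.0611 in Smad2 KO (-1.19 ± 0.31).

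At d3 Fgf17, like Fgf8, kept its WT level in Smad2 KO and not in Smad2/3 DKO EBs. It stood at 10.48, 9.88, 9.63 and 9.19 in Smad2 KO, at 6.04 (not detected), 8.91, 7.70 and 6.70 (not detected) in Smad3 KO and at 6.15 (not detected), 7.42, 7.37 and 7.60 in Smad2/3 DKO. The Smad2 KO arrays overlapped the WT range of 8.34 to 10.29, no Smad2/3 DKO array reached it, and of the Smad3 KO clones only CCE.2B7 did. The same clones, CCE.2B7 and CCE.1H1, were the higher pair for Fgf8 and for Fgf17. Fgf17 fell by 2.31 on the log2 scale in Smad2/3 DKO (SE 0.55, adjusted p = 0.00975), while the Smad3 KO difference was -2.11 ± 0.55 with an adjusted p of 0.0631 as labelled and 0.0372 without the doubted Smad2 KO library. A second, dimmer Fgf17 probe was detected on 1 of 4 WT and 0 of 4 Smad2/3 DKO d3 arrays. On that probe neither Smad2/3 DKO (adjusted p = 0.122) nor Smad3 KO (adjusted p = 0.182) was called against WT. It was called lower in Smad2/3 DKO than in Smad2 KO (adjusted p = 0.038).

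At d2 Fgf17 had been dim in WT, and the knockouts did not lie below it. Smad2 KO read 8.35, 8.56, 7.69 and, in the doubted replicate 4, 10.80, Smad3 KO 7.99, 6.03, 7.76 and 8.21, and Smad2/3 DKO 7.57, 7.60, 7.70 and, in the doubted replicate 4, 8.86. All these groups overlapped WT (6.66 to 8.31), and the largest difference was 1.67 ± 0.62 in Smad2 KO (adjusted p = 0.317), or 1.02 ± 0.48 without the doubted libraries (adjusted p = 0.348).

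Fgf4 had nearly gone by d3 in every genotype. At d2 it was still detected in all 4 Smad3 KO clones (8.09, 8.30, 8.70 and 8.87), 2 of which lay above every WT line, with a difference of 1.37 ± 0.53 (adjusted p = 0.507). Their parent CCE was the highest WT line at 8.34. The Smad2/3 DKO d2 EBs had no detectable Fgf4 (6.16, 6.04, 6.57 and 6.51), and Smad2 KO d2 EBs read 6.19, 6.68, 6.71 and, in the doubted replicate 4, 9.15. At d3 Fgf4 was detected in 1 Smad3 KO clone (7.43), in 1 Smad2/3 DKO clone (7.65) and in the library labelled d3 Smad2 KO replicate 4 (8.27), and none of the differences passed the test.

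Of the receptors, Fgfr2 moved against the ligands. In d3 EBs it stood at 11.41, 11.07, 11.09 and 10.87 in Smad2/3 DKO, at 10.19, 9.23, 9.40 and 9.65 in Smad3 KO, and at 9.21, 8.99, 8.85 and, in the doubted replicate 4, 10.63 in Smad2 KO. All 4 Smad2/3 DKO arrays lay above every other d3 array, while both single knockouts overlapped the WT range of 7.78 to 9.63. Fgfr2 was higher than in WT by 2.39 ± 0.40 in Smad2/3 DKO (adjusted p = 0.000873). The differences that did not pass were 0.90 ± 0.40 in Smad3 KO (adjusted p = 0.227) and 0.70 ± 0.40 in Smad2 KO (adjusted p = 0.417), the latter 0.30 ± 0.34 without the doubted library (adjusted p = 0.76).

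A second Fgfr2 probe read 7.71, 7.11, 7.05 and 7.18 in Smad2/3 DKO d3 EBs and was detected on all 4 arrays. It was not detected in WT (5.17 to 5.48), Smad2 KO (5.27 to 6.16) or Smad3 KO d3 EBs (5.33 to 6.30). It was called higher in Smad2/3 DKO than in WT (adjusted p = 4.32e-05), Smad2 KO (adjusted p = 0.00116) and Smad3 KO (adjusted p = 0.000252). Only probes detected in at least 3 arrays were tested. Apart from these 4 arrays, this probe was detected on 1 Smad2 KO ESC array and 1 Smad2/3 DKO d2 array. It was thus tested only through the group in which it was high, and its calls are no independent check of the first probe. The other Fgfr2 probes, which were not tested, were detected on no array. At d2 the first probe read 10.34, 10.56, 11.07 and, in the doubted replicate 4, 9.48 in Smad2/3 DKO against 8.80 to 10.03 in WT. The d2 difference was 0.91 ± 0.57 as labelled (adjusted p = 0.56) and 1.20 ± 0.29 without the doubted libraries (adjusted p = 0.0323), when the groups no longer overlapped.

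Markers of trophectoderm and extra-embryonic ectoderm, a list that did not include Fgfr2, were higher together with Fgfr2 in Smad2/3 DKO EBs. Their summed signal over 12 tested genes was 3308 to 13776 in WT d3 EBs and 38245 to 59515 in Smad2/3 DKO d3 EBs, where all 12 were detected and 11 called higher (background 17%). It was 17308 to 32695 in Smad2 KO (6 higher; background 3.03%) and 2104 to 3544 in Smad3 KO d3 EBs (1 lower; background 1.31%). Fgfr2 was called in neither single knockout at d3. Its mean in Smad2 KO d3 EBs was 9.42 (9.01 without the doubted library) against 8.72 in WT. Whether the markers and Fgfr2 differed in their changes was not tested. Gata3, Hand1, Plac1, Rhox6, Rhox9 and Ascl2 were not detected on any WT d3 array. At d2 the sum was 1755 to 3049 in WT and 14059 to 35665 in Smad2/3 DKO (10 of 12 higher; background 2.41%). Their part in the Fgfr2 result was not tested.

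Over the 45 arrays Fgfr1 had the narrowest range of the tested members. In d3 EBs it stood at 7.92, 7.96, 7.69 and 8.26 in Smad2/3 DKO, 7.86, 7.56, 7.57 and 7.58 in Smad3 KO, and 7.66, 7.44, 7.19 and, in the doubted replicate 4, 5.86 in Smad2 KO. All Smad2/3 DKO and all Smad3 KO arrays lay above the highest WT array (7.36). The group means differed from WT by 0.67 ± 0.29 (adjusted p = 0.133) and 0.36 ± 0.29 (adjusted p = 0.52). The Smad2/3 DKO difference was called without the doubted library (0.67 ± 0.15, adjusted p = 0.0044). At d2 Fgfr1 read 7.50, 8.43, 7.66 and 7.00 in Smad2/3 DKO and 7.68, 7.69, 8.17 and, in the doubted replicate 4, 5.86 in Smad2 KO, with no call. Apart from the doubted libraries these lay above the WT range of 6.79 to 7.40.

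**Figure D3:**
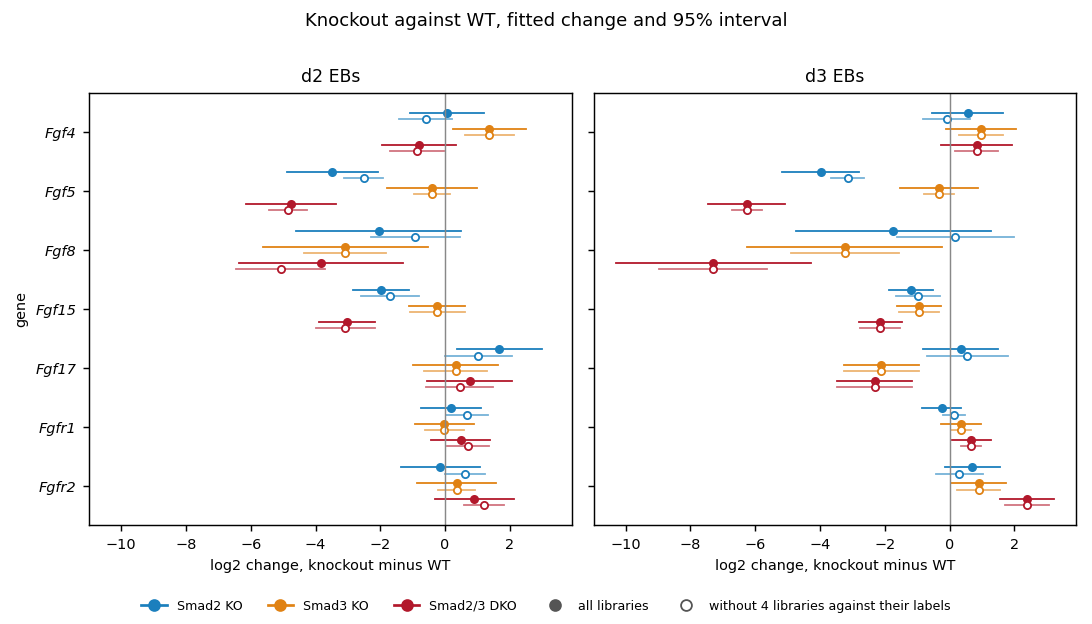
Fitted log2 change from WT with its 95% interval (x axis) for the 7 tested members (y axis) in each knockout, at d2 and at d3. Filled points use all libraries and open points leave out the 4 libraries that went against their labels. At d3 the Smad2/3 DKO values run from 2.39 for Fgfr2 down to -7.30 for Fgf8, and Fgf8 in Smad2 KO moves from -1.73 to 0.18 when the doubted library is left out. For members not detected in a knockout the plotted change is the fitted value, not a bound.

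Set directly against each other at d3, the genotypes differed as follows. Between Smad2/3 DKO and Smad2 KO 4 members were called (3 lower, 1 higher; 4.83% of all tested genes), and between Smad2/3 DKO and Smad3 KO 3 (2 lower, 1 higher; background 17.6%). Between Smad2 KO and Smad3 KO 2 were called (1 lower, 1 higher; background 12.1%). Without the doubted library the counts were 5 (background 7.47%), 4 (background 23.4%) and 3 (background 14%).

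Fgf5 was lower in Smad2/3 DKO than in Smad2 KO by at least 1.75-fold as labelled (adjusted p = 0.0326) and at least 3.12-fold without the doubted library (adjusted p = 4.78e-06), and lower than in Smad3 KO by at least 22.0-fold (adjusted p = 6.52e-06). Fgf8 was lower in Smad2/3 DKO than in Smad2 KO by at least 17.2-fold as labelled (adjusted p = 0.038) and at least 64.7-fold without the doubted library (adjusted p = 9.77e-05). Against Smad3 KO the adjusted p was 0.0643 as labelled, and without the doubted library Fgf8 was at least 6.08-fold lower (adjusted p = 0.00181). Fgf17 was lower in Smad2/3 DKO than in Smad2 KO (-2.66 ± 0.55, adjusted p = 0.0121), a call lost without Smad2/3 DKO replicate 1 (KT15.2G9; -2.33, adjusted p = 0.0515). The calls of Fgf5 and Fgf8 against Smad2 KO were lost on leaving out any 1 of the 8 arrays other than the doubted one.

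Fgfr2 was higher in Smad2/3 DKO than in either single knockout, by 1.69 ± 0.40 over Smad2 KO (adjusted p = 0.0248) and 1.49 ± 0.40 over Smad3 KO (adjusted p = 0.0174). The first call was lost on leaving out any of Smad2 KO replicates 1 to 3 or Smad2/3 DKO replicates 1 and 3 (1.5 to 2.10 over all 8 arrays), and became stronger without the doubted library (2.10 ± 0.34, adjusted p = 0.00136). The second was lost without Smad3 KO replicate 2 (1.36, adjusted p = 0.0525), Smad3 KO replicate 3 (1.42, adjusted p = 0.0511) or Smad2/3 DKO replicate 1 (1.39, adjusted p = 0.0528). Fgf15 was called lower in Smad2/3 DKO than in Smad3 KO (adjusted p = 0.0164), but neither group was detected and no fold is given.

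The single knockouts themselves differed in 2 ligands. Fgf5 was lower in Smad2 KO than in Smad3 KO (-3.66 ± 0.56, adjusted p = 0.00124), and Fgf17 was higher by 2.46 ± 0.55 (adjusted p = 0.0114). The difference in Fgf8, called only without the doubted library, was 1.5 ± 1.42 as labelled and 3.41 ± 0.84 without it (adjusted p = 0.0161).

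The change from ESCs to d3 EBs was compared between genotypes with an interaction term over all 45 arrays. In Smad2/3 DKO it departed from that in WT for 4 members (3 lower, 1 higher; background 3.96%, or 8.57% without the doubted libraries with 4 members called). It was lower for Fgf5 (adjusted p = 0.000101), Fgf8 (adjusted p = 0.0224) and Fgf15 (adjusted p = 0.0328). No size is given for these ligands, since 3 of the 4 groups in the term (WT ESCs, Smad2/3 DKO ESCs and Smad2/3 DKO d3 EBs) were below detection. For Fgfr2, detected in all 4 groups, the difference was 3.12 ± 0.85 (adjusted p = 0.0289). The Fgf5 call held whichever of the 15 arrays of these groups was left out. Those of Fgf8 (2 of 15 arrays, Smad2/3 DKO ESC replicates 3 and 4), Fgf15 (7 of 15) and Fgfr2 (6 of 15, with values of 2.80 to 3.42) did not.

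In the single knockouts this term was called for no member as labelled (background 0.0517% in Smad2 KO and 0.755% in Smad3 KO). At an unadjusted p under 0.05 it passed for 1 member in Smad2 KO (Fgf5, adjusted p = 0.157) and 4 in Smad3 KO, among them Fgfr2 (adjusted p = 0.143). The share of all genes at that threshold was not counted. Without the doubted libraries 1 member was called in each, Fgf5 lower in Smad2 KO (adjusted p = 3.95e-07; background 0.91%; both ESC groups below detection) and Fgfr2 in Smad3 KO (3.64 ± 0.51, adjusted p = 0.000137; background 2.66%). The latter rests on the low Fgfr2 of 2 Smad3 KO ESC clones.

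Over the 12 group means Fgf5 was highest in WT d3 EBs (11.50), followed by WT d2 (11.25), Smad3 KO d3 (11.18) and Smad3 KO d2 EBs (10.85), neighbours whose ranges overlapped. A gap without overlap followed before Smad2 KO d2 (7.77, or 8.74 without the doubted library) and d3 EBs (7.52, or 8.35 without it), and the 4 lowest means, between 5.04 and 5.23, were those of Smad2/3 DKO d3 EBs and of WT, Smad2/3 DKO and Smad2 KO ESCs. For Fgf15 a gap without overlap lay between WT d3 EBs (7.31), the third in order, and Smad3 KO d3 EBs (6.37). For Fgf4, Fgf17, Fgfr1 and Fgfr2 every neighbouring pair overlapped, and for Fgf8 every pair in which at least 1 group was detected did.

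Fgf8 and Fgf17 are expressed in the primitive streak, and markers of that tissue moved with them at d3. Of 12 tested streak markers 11 were lower in Smad2/3 DKO d3 EBs (background 17%), with a summed signal of 804 to 1274 against 9610 to 41822 in WT. Mixl1, Eomes, Mesp1, Wnt3, Lhx1, Gsc and Tbx6 were not detected in any Smad2/3 DKO d3 EBs. The sum was 986 to 7950 in Smad3 KO (1 marker lower as labelled, background 1.31%, 8 without the doubted library, background 6.34%). In Smad2 KO it was 680 to 21504 (1 lower as labelled, background 3.03%, 0 without it, background 3.27%). At d2 the sum was 2008 to 6341 in Smad2/3 DKO EBs (highest in the doubted replicate 4) and 989 to 5165 in WT. It thus did not lie below WT at d2, where Smad2/3 DKO EBs had detectable Fgf8 only in the doubted replicate 4. Primed epiblast markers, which belong with Fgf5, summed to 17522 to 19164 in Smad2/3 DKO d3 EBs (4 of 7 lower; background 17%). At d3 they summed to 17379 to 22606 in Smad2 KO (2 lower; background 3.03%) and to 31246 to 36477 in Smad3 KO. Naive markers were higher in Smad2/3 DKO d3 EBs for 8 of 11 genes (15719 to 26258, background 17%), while Fgf4 was not called there. At d2 they summed to 3553 to 8085 in WT and 5230 to 14549 in Smad3 KO. They reached 13023 to 81700 in Smad2 KO and 16844 to 29399 in Smad2/3 DKO d2 EBs (both highest in the doubted replicate 4). Fgf4 was detected at d2 on 2 of 4 WT, 4 of 4 Smad3 KO, 2 of 4 Smad2 KO and 0 of 4 Smad2/3 DKO arrays. Naive markers and Fgf4 thus did not share 1 order of genotypes at d2. The part of these cell states in the ligand results was not tested.

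The other genes of the pathway were read from lists of ligands, extracellular modulators, transducers, feedback inhibitors and target transcription factors. Of 17 other Fgf ligands 5 were bright enough to test. In WT d3 EBs against ESCs 3 of the 5 were higher and 1 lower, where 35.1% of all tested genes were called. Fgf10, which signals through Fgfr2 in later limb and lung buds, was at least 8.45-fold higher at d3 than at d2 (adjusted p = 0.00587). In Smad2/3 DKO d3 EBs 2 of the 5 were lower and none higher, where 17% of all tested genes were called. These were Fgf10, by at least 8.76-fold (adjusted p = 0.000792), and Fgf3, by at least 1.58-fold (adjusted p = 0.0326). Fgf10 was also lower in Smad3 KO d3 EBs, with a change of -3.52 ± 0.68 (adjusted p = 0.0292).

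Of 24 coreceptors and extracellular modulators 18 were tested. In WT cells 8 of the 18 were called between ESCs and d2 (7 higher, 1 lower, where 28.4% of all tested genes were called), with a median change of 0.43 against 0.02 over all genes. Between ESCs and d3 13 were called (11 higher, 2 lower, where 35.1% of all were called), with a median of 0.85 against 0.02. Those higher at d3 included the heparan sulfate proteoglycans Sdc2 (2.21) and Gpc1 (1.73). In Smad2/3 DKO d3 EBs, where 17% of all tested genes were called, 4 were higher and 3 lower (median -0.05 against -0.03 over all tested genes). The higher ones included Fgfbp1, a secreted carrier of Fgf ligands (1.86, adjusted p = 0.00257), and the lower ones Sulf1, a sulfatase that trims heparan sulfate (-2.12 ± 0.23, adjusted p = 3.08e-05). In d3 Smad2 KO and Smad3 KO EBs none of the 18 was called as labelled. Without the doubted library Flrt3, a membrane protein that binds Fgf receptors (-1.22, adjusted p = 0.0208), and the heparan sulfate polymerase Ext1 (-0.72, adjusted p = 0.0322) were lower in Smad3 KO d3 EBs.

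Of 18 intracellular transducers 6 were tested, and 1 of the 6, the adaptor Gab1, was called in Smad2/3 DKO d3 EBs (1.44, adjusted p = 0.0278), where 17% of all tested genes were called. Gab1 was lower in WT d3 EBs than in ESCs (-1.82). Of 11 feedback inhibitors 8 were tested, and in Smad2/3 DKO d3 EBs 2 of the 8 were lower and none higher, where 17% of all tested genes were called (median -0.51 against -0.03). These were Il17rd (Sef), a membrane inhibitor of Fgf receptors (-2.07 ± 0.43, adjusted p = 0.00449), and Dusp6, the cytoplasmic phosphatase of Erk (-1.25 ± 0.28, adjusted p = 0.00608). Dusp6 ranged from 12.28 to 13.07 in WT d3 EBs and from 11.37 to 11.74 in Smad2/3 DKO d3 EBs, without overlap. At d2 in Smad2/3 DKO the nuclear Erk phosphatase Dusp5 was higher (1.31, adjusted p = 0.032) and Il17rd lower (-1.53, adjusted p = 0.0194). In Smad3 KO d3 EBs none of the 8 was called as labelled, and without the doubted library Il17rd (-1.22, adjusted p = 0.0354), Dusp6 (-0.81, adjusted p = 0.0188) and Spred1 (-0.65, adjusted p = 0.028) were lower.

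Of 8 target transcription factors 6 were tested, and 4 were lower and none higher in Smad2/3 DKO d3 EBs, where 17% of all tested genes were called (median -1.09 against -0.03 over all tested genes). They were the Ets factors Etv1 (-2.88 ± 0.37, adjusted p = 0.000119), Etv4 (-1.45 ± 0.45, adjusted p = 0.0411) and Etv5 (adjusted p = 0.00473), and the immediate early gene Egr1 (-1.30 ± 0.40, adjusted p = 0.0357). Etv1 ranged from 9.58 to 9.94 in WT, 9.57 to 10.15 in Smad3 KO, 6.87 to 8.88 in Smad2 KO and 6.16 to 7.77 in Smad2/3 DKO d3 EBs. The 6.87 was that of the doubted Smad2 KO replicate 4. Etv1 was also the target called lower in Smad2 KO (-1.46 ± 0.26 at d2, adjusted p = 0.0276, and -1.65 at d3, adjusted p = 0.0311) and in Smad2/3 DKO d2 EBs (-1.99 ± 0.26, adjusted p = 0.000874). Without the doubted libraries the Smad2 KO changes were -1.16 at d2 (adjusted p = 0.0157) and -1.24 at d3 (adjusted p = 0.0372). In Smad3 KO d3 EBs the immediate early gene Fos was at least 1.49-fold lower (adjusted p = 0.0316), and Egr1 was called lower without the doubted library (-1.39, adjusted p = 0.0191).

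**Figure D4:**
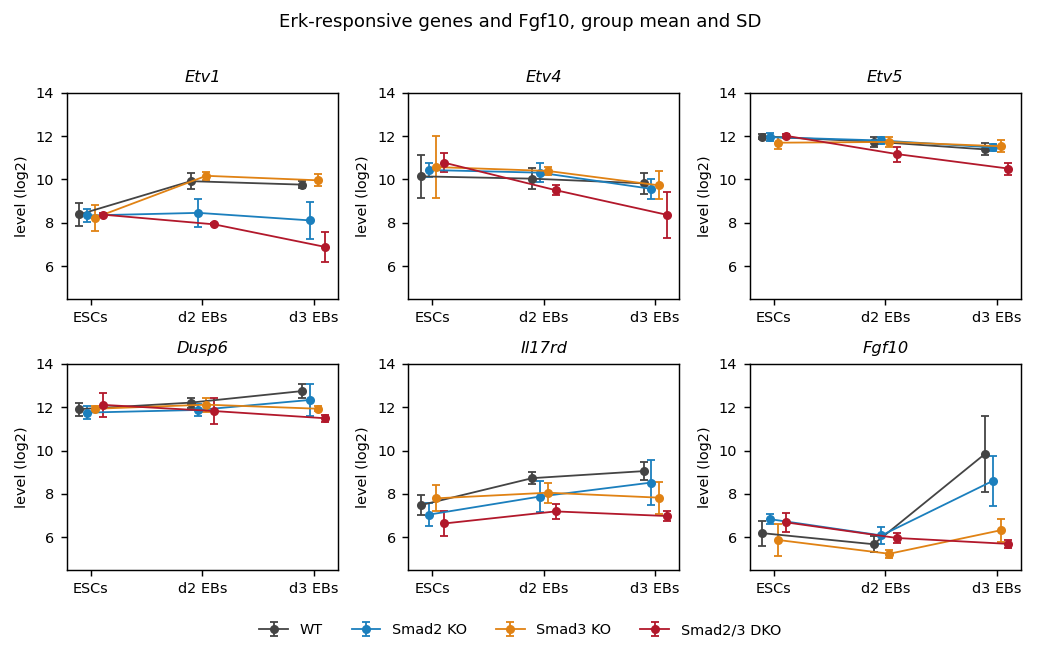
Group mean (points) and SD (bars) of log2 normalised signal (y axis) of Etv1, Etv4, Etv5, Dusp6, Il17rd and Fgf10 by stage (x axis) and genotype (colour), over all libraries. At d3 the Smad2/3 DKO mean is the lowest of the 4 genotypes in each panel, with Etv1 at 6.89 against 9.76 in WT. The genes drawn were all called lower in Smad2/3 DKO than in WT d3 EBs, so their place below WT is no further result. Pathway genes called higher there, such as Gab1, are not drawn.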

How the data were processed

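RNA of mouse ESCs and EBs was hybridised to Illumina MouseWG-6 v2.0 arrays, and 45 arrays in 12 groups were used. The authors extracted average bead signal with GenomeStudio 2009.2 and deposited it as intensity per probe on a linear scale, with no background subtracted. The deposited detection p-value of each probe was computed by the authors against negative control probes. The deposited normalised table, in log2 units, was made by the authors with an online R-based array module and served as an alternative. The authors excluded 3 further ESC arrays, which are not analysed here. The annotation given for the probes paired 34885 with 1 symbol, 18 with several and 10378 with none.

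Intensity was corrected and quantile-normalised with neqc (limma 3.58.1, R 4.3.3, offset 16, negative controls inferred from the detection p-values). Probes detected in at least 3 arrays were tested with lmFit and eBayes, and p-values were adjusted (Benjamini-Hochberg) over all tested probes of a comparison. Each stage was fitted with all 4 genotypes, WT stages were fitted on the 12 WT arrays and changes over time on all 45. A gene stands for its brightest tested probe. Scripts were tested on simulated data. With no more than 4 arrays in a group, their number limits the precision.

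WT replicate numbers mark the same line at each stage in the labels and so pair the WT arrays (residual correlation -0.26 to 0.46, 3 of 12 pairs over 0.1), whereas equal numbers in different genotypes pair nothing, and the block was run as an alternative. No 2 arrays held identical values (highest correlation 0.987). The 9 genes, the pathway and marker lists and the rule for named genes (every member, called list genes as examples, and the 3 genes most alike per member) were chosen with earlier results of these data known. Comparisons with WT at a stage share the same WT arrays.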

Additional observations from a re-analysis of the deposited data

Results flagged for a closer look

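Of 63 sets of 4 arrays, 1 for each tested member and group of 4, 10 held an array far from the other 3, where chance gives about 1 in 20. The doubted libraries gave 6 of the 10. In the library labelled d3 Smad2 KO replicate 4 these were Fgf4 (8.27), Fgf5 (5.01) and Fgf8 (5.08), in the library labelled d2 Smad2 KO replicate 4 Fgf8 (5.15), and in the library labelled d2 Smad2/3 DKO replicate 4 Fgf8 (10.49) and Fgf17 (8.86). The other 4 were Fgf8 at 8.87 in the WT line CCE at d2, Fgf17 at 8.31 in the WT line CCF at d2, Fgf17 at 6.15 in Smad2/3 DKO d3 replicate 1 (clone KT15.2G9) and Fgfr1 at 7.86 in Smad3 KO d3 replicate 1 (clone CCE.2E7).

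The change from ESCs to d3 EBs differed between Smad2/3 DKO and WT, by the interaction term of limma over all 45 arrays, for 4 members. The fitted difference in log2 change was 3.12 for Fgfr2, which was detected in all 4 groups of the term. The fitted values for Fgf5 (-6.22), Fgf8 (-7.22) and Fgf15 (-2.07) rest on WT ESCs, Smad2/3 DKO ESCs and Smad2/3 DKO d3 EBs in which these probes were not detected, and are neither measured sizes nor bounds.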

How the results depend on the processing

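No called member changed direction under any alternative run. Counts here are of called members. The normalised table of the authors gave 0 for Smad2 KO at d2. No background correction gave 1 there and 1 for the ESC to d3 change in Smad2 KO. Median scaling gave 2 for Smad2 KO and 2 for Smad3 KO at d3. It moved the median of all genes by up to -0.31 (Smad3 KO d3), and the split of all calls from 918 higher and 726 lower to 408 and 685 in Smad2/3 DKO d3 EBs. With no filter on dim probes WT d3 against d2 gave 0, Smad2 KO at d2 0, Smad2/3 DKO against Smad2 KO 1 and the Smad2/3 DKO change over time 1. The threshold of the study (unadjusted p under 0.05 and over 1.5-fold) gave 1 for Smad3 KO ESCs, 2 for Smad3 KO at d2, 2 for Smad2 KO and 4 for Smad3 KO at d3, and 1 and 4 for the changes over time in Smad2 KO and Smad3 KO. At this threshold the share of all genes was not counted. Without the doubted libraries, chosen after seeing the data, the counts were 1 for Smad2 KO, 1 for Smad3 KO and 4 for Smad2/3 DKO at d2, 2 for Smad3 KO at d3, and 1 for the change over time in each single knockout. A fit of all 45 arrays gave 1 for WT d3 against d2, which was Fgf17 (adjusted p = 0.0412 by limma). The calls of Fgf4, Fgf8 and Fgf15 between these stages were all lost in that fit.

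With the replicate block 1 member remained for Smad2 KO at d2, since Fgf15 was lost, and Fgfr2 was lost in Smad2/3 DKO against Smad2 KO. It kept 31 of 33 calls, and with clone as a random block all 4 calls of the change over time were kept. Leaving out 1 array at a time gave 0 to 4 members for WT d3 against d2, 0 to 2 for Smad2 KO at d2, 1 to 2 for Smad2 KO and 0 to 1 for Smad3 KO at d3, 0 to 5 for Smad2/3 DKO against Smad2 KO, and 0 to 1 and 2 to 4 for the changes over time in Smad3 KO and Smad2/3 DKO. The 5 calls in Smad2/3 DKO d3 EBs and the 6 in WT d2 EBs were made whichever array was left out. At d3 Fgfr2 in Smad2/3 DKO against Smad2 KO was also lost under median scaling, with no filter on dim probes and in the 45-array fit. Against Smad3 KO the call of Fgfr2 was lost in the 45-array fit. The causes of these shifts were not tested. Fgf15 was detected on 13 and Fgfr1 on 29 of 45 arrays, and Fgfr3 and Fgfr4 on none.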

Other observations

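Over the 12 group means the members that moved most alike were Fgf5 and Fgf15 (Pearson r 0.83) and Fgf5 and Fgf8 (0.82), and those most opposed Fgf4 and Fgfr1 (-0.83). These are descriptions over means of the same arrays, which share stage and genotype. Among all tested genes the pattern of Fgf4 was most like those of Aplp1, Yrdc and Fam178b (0.98 each), that of Fgf5 like Poglut2 (0.98), Tafa4 (0.98) and Pphln1 (0.97), and that of Fgf8 like Prr18 (0.97), Fam162a (0.97) and Ppp4r4 (0.96). Fgf15 had no partner above Ubr7 (0.93), followed by Xpo5 and Pdzd8, and Fgf17 none above Klc4 and Akna (0.93 each), followed by 6330549D23Rik. The pattern of Fgfr1 was most like those of Numb (0.98), the heparan sulfate proteoglycan Gpc1 (0.98) and Zcchc18 (0.97), and that of Fgfr2 like Gadd45g (0.91), 4933434E20Rik (0.90) and Lrp2 (0.89).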
